A study of Mus musculus with 20 samples.

Results

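The genes of the autophagy and mitophagy machinery were followed in mouse erythroid progenitors kept with or without erythropoietin (Epo). The list held 37 genes. Only probe sets annotated to a single gene were used, and where a gene had several, the brightest on average was taken. This gave values for 35 members among 18194 genes measured. Optn, a receptor for ubiquitin-tagged cargo, had no probe set named for it in the annotation used here. The probe sets of Bnip3l, the receptor known for the removal of mitochondria from maturing red cells, were annotated together with its pseudogene, so no value of Bnip3l is given.

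Macroautophagy encloses cytoplasm in a double membrane and delivers it to the lysosome. The ULK kinase complex starts the process, a class III phosphoinositide 3-kinase complex marks the growing membrane, the ATG9, ATG2 and WIPI proteins supply and shape it, and a pair of ubiquitin-like conjugation systems attach LC3 and GABARAP proteins to it. Receptors such as p62 (Sqstm1) and NBR1 tie cargo to LC3, and mitophagy is the form of the process that removes mitochondria, by which erythroid cells lose theirs during terminal maturation. Epo acts through its receptor, the kinase JAK2 and the transcription factor STAT5, and is the survival factor of late erythroid progenitors.

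The cells were colony-forming unit erythroid cells (CFU-E) of BALB/c mouse embryos, taken from fetal liver at embryonic day 13.5. Erythroid progenitors negative for TER119, a surface marker of later erythroid cells, were enriched by magnetic removal of cells carrying TER119 or markers of other blood lineages, so what remained was not selected by a marker of its own. A group called Epo held 12 arrays of cells given 0.5 U/ml Epo, at 0 to 8 h in steps of 1 h and at 14, 19 and 24 h. A group called no Epo held 8 arrays of untreated cells at 0 to 7 h. The labels describe the cells before that in different ways, as starved for 1 h without serum after the sort, and as cultured for 12 to 14 h in serum with Epo, so the earlier contact of both groups with Epo is uncertain. Each treatment and time was 1 array, nothing in the labels says whether times came from separate cultures or animals, and so the tests measure the scatter of arrays at neighbouring times, which may be technical.

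The erythroid character of the cells was checked on 7 markers. Gata1, Klf1, Tfrc and Slc4a1 lay above the 96th percentile of all genes by their mean over the 20 arrays, Epor at the 94.7th and Alas2 at the 90.2nd, while the probe set of Hba-a1 was dim, at 3.39 on the log2 scale. Some hepatocyte markers ranked as high, with Afp at the 98.3rd percentile, Alb at the 97.0th, Ttr at the 93.1st and Apoa2 at the 92.9th. The rest were lower, down to the 60.4th for Ahsg. Of 8 hepatocyte markers, 7 were higher with Epo at 1 to 7 h and none lower, with a median difference of 0.88. That difference was already 1.40 at 0 h, and the summed hepatocyte signal fell from 12.8 to 14.4 with Epo at 1 to 7 h to 8.67 to 11.2 at 14 to 24 h (no Epo at 1 to 7 h, 12.3 to 13.6). The part of these cells in the results on autophagy genes was not tested. In RNA from whole cultures, fewer cells of a type and less RNA per cell cannot be told apart.

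The upstream sequences of the members were searched for 3 short motifs on both strands, as background to the factors that act below Epo: CACGTG, the core bound by TFEB and other E-box factors, GTAAACA, bound by FOXO factors, and TTCNNNGAA, the palindrome bound by STAT5. RefSeq windows (build GRCm38.p6) of 250 bases before to 50 bases after the start were at hand for 29 members. CACGTG lay in the windows of 4 members (Atg14, Atg3, Atg5 and Atg7), 13.8% of those matched, against 8.09% of all genes and 7.15% of all 32851 windows. TTCNNNGAA lay in 4 (Gabarap, Gabarapl1, Nbr1 and Wipi1), also 13.8%, against 9.55% of genes and 8.30% of windows. GTAAACA lay in 0 of 29, against 4.05% of genes and 3.65% of windows, and no matches of different motifs overlapped in a member. A match is a description of the letters and shows neither a bound site nor a cause. The stretches are shown for the members with a match whose levels differed between the series, each read 5′ to 3′ on the strand of its gene with the matched letters in capitals. The matches lie before the start of the gene, except in Atg14, where the match begins 1 base before the start and runs into the first exon. The stretch shown for Atg5 also ends a few bases past the start. The positions are chr6:129532968-129532997 (plus strand) for Gabarapl1, chr11:69991304-69991333 (plus) for Gabarap, chr11:101552533-101552562 (plus) for Nbr1, chr11:109611528-109611557 (minus) for Wipi1, chr14:47568418-47568447 (minus) for Atg14 and chr10:44268313-44268342 (plus) for Atg5.
Gabarapl1: tgttagagcaTTCTTTGAAttaacaaatta
Gabarap: ccaacgtaatTTCCGAGAActgcagaacta
Nbr1: gagctgtgggTTCCAGGAAgactacaattc
Wipi1: acccagccgaTTCTCTGAAggaggggcggg
Atg14: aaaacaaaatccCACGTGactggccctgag
Atg5: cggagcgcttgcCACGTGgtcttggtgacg

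Of the 4 members with TTCNNNGAA, Gabarapl1 was higher with Epo, while Gabarap, Nbr1 and Wipi1 were lower. The whole upstream stretch of Gabarapl1 (chr6:129532942-129533191, plus strand, GRCm38.p6) is shown as an example chosen after the values were seen, with the match in capitals 214 bases before the start. A part of STAT5 in these differences was not tested.
Gabarapl1 upstream: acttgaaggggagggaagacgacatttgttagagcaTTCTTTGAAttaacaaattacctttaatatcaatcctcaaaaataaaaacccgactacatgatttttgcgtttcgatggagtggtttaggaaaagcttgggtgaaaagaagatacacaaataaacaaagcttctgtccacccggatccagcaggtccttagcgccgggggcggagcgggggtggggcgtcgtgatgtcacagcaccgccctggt

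The first comparison asked how the members differed between cultures with and without Epo at the same hours, 1 to 7 h, and is given as the mean of 7 matched log2 differences (Epo minus no Epo, standard error over 7 hours, limma with time as a block and adjustment over all genes). Most members were lower with Epo. Of the 35, 20 were lower, 6 higher (Atg4a, Atg5, Atg10, Gabarapl1, Gabarapl2 and Fundc1) and 9 did not pass the test. Over all genes 38.4% passed, 18.2% as higher and 20.2% as lower. The median difference of the members was -0.46, that of all genes 0.03. All 5 members of the ULK complex and all 5 of the class III kinase complex were lower, while the conjugation enzymes and the LC3 and GABARAP proteins were split. The calls of Atg13, Atg101, Map1lc3a and Gabarap were lost on leaving out single hours, so Atg13 and Atg101 of the ULK complex were not firm. Rb1cc1 of that complex was not firm either, with a difference of -0.38 at 0 h and of 0.04 measured from each series' own 0 h. Among the cell type markers, 4 of 7 erythroid ones were also lower with Epo and 0 higher (Epor -0.89, Gata1 -0.72, Klf1 -0.40 and Tfrc -0.36, limma), and of 9 granulocyte markers Mpo (-1.48, and -2.26 at 0 h) and Prtn3 (-0.77, and -2.13 at 0 h) were lower and S100a8 (0.58) higher. The part of these shifts in the members' differences was not tested.

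**Figure D1:**
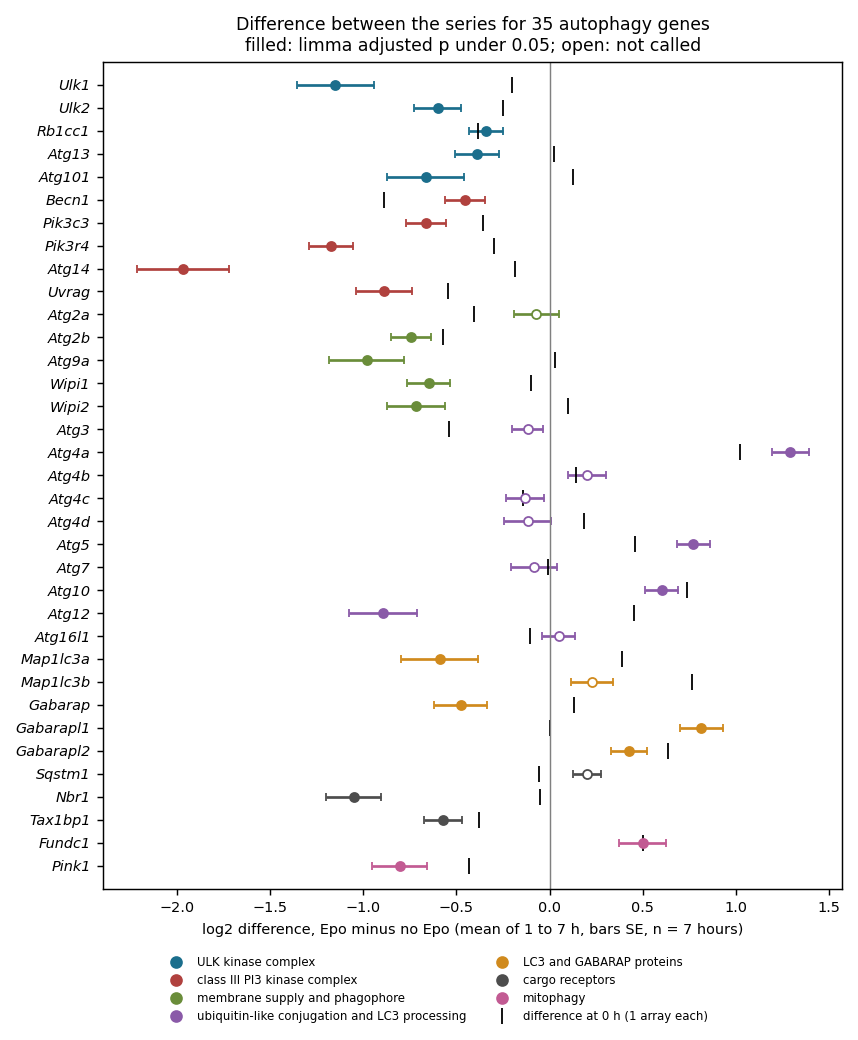
Mean log2 difference between the series (Epo minus no Epo) at 1 to 7 h for each of the 35 members, with bars for the standard error over 7 hours, filled where the adjusted p passed 0.05 and coloured by role; black ticks show the difference at 0 h, 1 array each. The values run from -1.97 for Atg14 to 1.29 for Atg4a.

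The ULK complex phosphorylates its partners when nutrients or growth factors fall away. Its kinase Ulk1 read 6.46, 8.00, 8.24, 7.86, 7.79, 7.53 and 7.59 without Epo at 1 to 7 h, and with Epo between 5.90 and 6.77 (median 6.54). The series overlapped only through the array at 1 h without Epo, which was lower than 5 of the 7 with Epo. The difference was -1.15 ± 0.21 (SE), a 2.22-fold lower level with Epo (adjusted p = 0.0010), and it was negative at 6 of 7 hours. The second kinase Ulk2 was lower by less, at -0.60 ± 0.13 (adjusted p = 0.0029). The scaffold Rb1cc1 (FIP200) differed by -0.34 ± 0.09, the regulatory subunit Atg13 by -0.39 ± 0.12 and its stabilising partner Atg101 by -0.67 ± 0.21. A second probe set of Rb1cc1 differed by -1.37 and a further, dim one by 0.09, so the size for Rb1cc1 depends on the probe set.

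The class III kinase makes phosphatidylinositol 3-phosphate, the lipid that recruits later factors. Atg14, the subunit that sends the complex to autophagosome formation sites, had the largest difference of all members. It read 5.50, 6.85, 7.22, 7.35, 7.63, 7.52 and 7.46 without Epo at 1 to 7 h. With Epo it stayed between 4.84 and 5.32 (median 5.07), and no array with Epo reached the lowest without it. The difference was -1.97 ± 0.25, a 3.92-fold lower level (adjusted p = 8.4e-05), negative at 7 of 7 hours.

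Pik3r4, the regulatory subunit (VPS15) of the same kinase, read 4.97 to 5.82 with Epo (median 5.50) and 6.26 to 6.84 without (median 6.77), also with no overlap. It differed by -1.17 ± 0.12, or 2.26-fold (adjusted p = 2.0e-05). The catalytic subunit Pik3c3 (VPS34) differed by -0.66 ± 0.11, and Uvrag, which takes the place of Atg14 in complexes of the endocytic route, by -0.89 ± 0.15, both without overlap of the series. Becn1 (Beclin 1), the shared scaffold, differed by -0.46 ± 0.11 without overlap, but its array at 0 h labelled Epo was already lower by 0.89. A second bright probe set of Becn1 differed by 0.06, so its direction was not shared by its probe sets.

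Among the membrane factors, Atg9a, a membrane protein carried on vesicles that seed the phagophore, read 5.36 to 6.10 with Epo (median 5.91) and 5.88 to 7.55 without (median 6.82). Its difference was -0.98 ± 0.20 (adjusted p = 0.0025). The lipid transfer protein Atg2b differed by -0.74 ± 0.11, after a difference of -0.57 at 0 h. The lipid-binding Wipi1 and Wipi2 differed by -0.65 ± 0.11 and -0.72 ± 0.16. Atg2a, the paralog of Atg2b, did not pass the test, at -0.07 ± 0.12.

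Of 10 conjugation enzymes 3 were higher with Epo, 1 was lower and 6 did not pass. Atg4a, one of 4 proteases that trim LC3-like proteins and release them from membrane, read 8.67 to 9.05 with Epo (median 8.77) and 7.38 to 7.72 without (median 7.53). The series were apart at every hour, 0 h included, where the difference was already 1.02. Over 1 to 7 h it was 1.29 ± 0.10, or 2.45-fold (adjusted p = 3.4e-06). Its relatives Atg4b (0.20 ± 0.10), Atg4c (-0.13 ± 0.10) and Atg4d (-0.12 ± 0.13) did not pass.

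Atg5, which joins Atg12 to form the ligase for LC3, was higher by 0.77 ± 0.09, without overlap. Atg12 itself differed by -0.90 ± 0.18, but a second probe set of nearly the same brightness differed by only -0.09, so the size for Atg12 depends on the probe set. Atg10, the E2-like enzyme that joins them, was higher by 0.60 ± 0.09 at a low level, between 3.72 and 4.88 with Epo and 3.14 and 4.00 without. For Atg5 a second bright probe set differed by 0.03, and another, at 0.85, was close to the one used. Atg3, the E2-like enzyme for LC3 (-0.12 ± 0.08), the shared E1-like enzyme Atg7 (-0.08 ± 0.12) and the scaffold Atg16l1 (0.05 ± 0.09) did not pass.

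The LC3 and GABARAP proteins, which coat the membrane and bind receptors, went in both directions. Gabarapl1 read 9.64 to 10.46 with Epo (median 9.96) and 9.02 to 9.47 without (median 9.21), with no overlap. Its levels at 0 h were both 9.12. It differed by 0.81 ± 0.12 (adjusted p = 0.00020), and its second probe set by 0.87. With Epo it climbed to 10.46 at 3 h and then declined to 9.75 at 7 h and 9.12 at 14 h.

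Gabarapl2 (GATE-16) was higher by 0.43 ± 0.10, after a difference of 0.64 at 0 h. Map1lc3a differed by -0.59 ± 0.21 (adjusted p = 0.042) and Gabarap by -0.48 ± 0.14 (adjusted p = 0.021). Map1lc3b, the LC3 form most used as a marker of autophagosomes, gave 0.23 ± 0.11 on the probe set used, which did not pass. At 0 h that probe set already read 0.77 higher with Epo, and measured from each series' own 0 h it differed by -0.54. Other bright probe sets of Map1lc3b gave -0.70 and -0.60 and a dim one 0.61, so no direction is stated for this gene.

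Of the cargo receptors, Nbr1 was the most affected. It read 8.12, 9.12, 9.13, 9.06, 9.18, 9.15 and 9.20 without Epo at 1 to 7 h, against 7.68 to 8.33 with Epo (median 7.93). From 2 h on every array without Epo lay above every array with it in that span, and at 1 h the difference was small. The mean was -1.05 ± 0.15, or 2.07-fold lower with Epo (adjusted p = 0.00020), and a second probe set gave -1.32. Tax1bp1, a further ubiquitin-binding receptor, differed by -0.57 ± 0.10 without overlap. Sqstm1 did not pass, at 0.20 ± 0.08 (adjusted p = 0.0585).

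The mitophagy genes measured went opposite ways. Pink1, the kinase that marks damaged mitochondria for removal, read 5.21 to 5.96 with Epo (median 5.56) and 5.91 to 6.96 without (median 6.46), a difference of -0.80 ± 0.15 (adjusted p = 0.0011). Fundc1, a receptor in the outer mitochondrial membrane, was higher by 0.50 ± 0.13 without overlap of the series, and its array at 0 h labelled Epo was higher by the same 0.50.

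In all, the levels of 10 members (28.6%) did not overlap between the series at 1 to 7 h, against 13.9% of all genes. Of these 4 were higher with Epo (Atg4a, Atg5, Gabarapl1 and Fundc1) and 6 lower (Becn1, Pik3c3, Pik3r4, Atg14, Uvrag and Tax1bp1), against 6.56% and 7.31% of all genes. The difference was negative at 7 of 7 hours for 14 members (40.0%, all genes 15.2%) and positive at 7 of 7 for 6 (17.1%, all genes 14.1%).

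The series also differed at 0 h, where Atg4a was the 1 member at least 2-fold apart and 2.4% of all genes were that much higher and 0.632% lower with Epo. Measured from each series' own array at 0 h, the differences of the called members Rb1cc1 (0.04), Becn1 (0.43), Atg10 (-0.14), Gabarapl2 (-0.21) and Fundc1 (-0.0018) changed sign. Among members not called, those of Map1lc3b (-0.54), Atg3 (0.42), Atg2a (0.33) and Atg4c (0.0093) changed sign too. The count of members passing in limma fell to 0 of 35 when the difference was taken as constant over the hours, with 12 of all genes called. In that fit 5 of 35 members and 1446 of 18194 genes had an unadjusted p under 0.05. When the difference could drift, 4 members passed, all lower (Atg14, Atg12, Map1lc3a and Gabarap), with 678 of all genes called. These fits rest on 1 array per series at 0 h. Some other called members kept their sign but were already apart in the same direction at 0 h. Among these were Atg2b (-0.57), Uvrag (-0.55), Pink1 (-0.43), Tax1bp1 (-0.38), Pik3c3 (-0.36) and Atg5 (0.46). Measured from each series' own 0 h they differed by -0.17, -0.34, -0.37, -0.19, -0.31 and 0.32 in the same order. Atg12 (0.45) and Map1lc3a (0.39), lower with Epo at 1 to 7 h, were instead higher at 0 h.

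**Figure D2:**
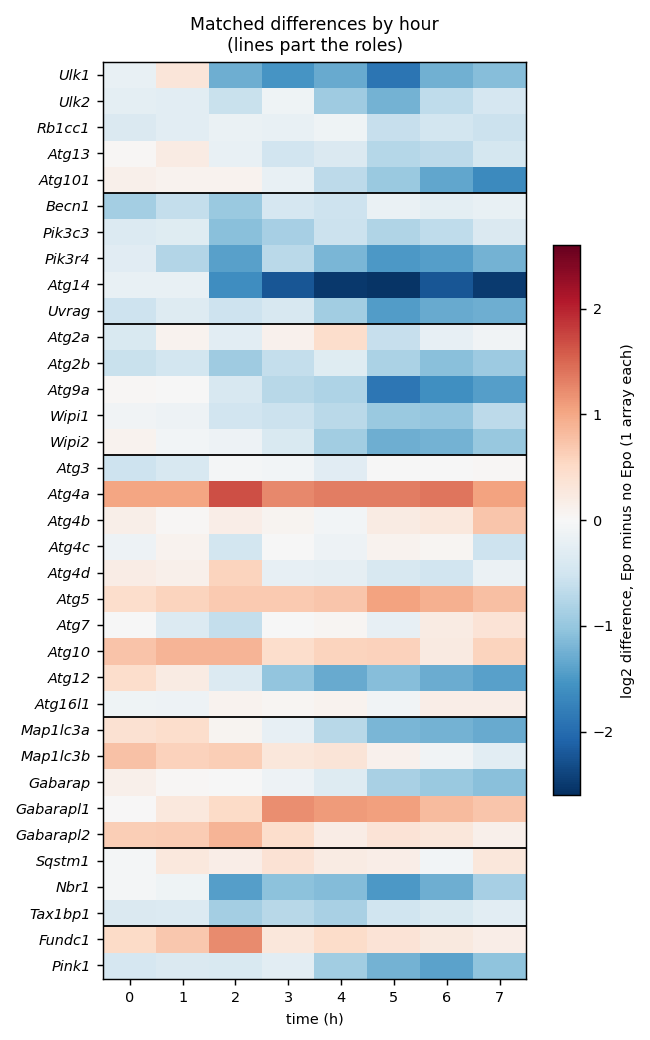
Matched log2 difference (Epo minus no Epo, 1 array each) of each of the 35 members at 0 to 7 h, ordered by role, red where higher and blue where lower with Epo. The blue of Atg14, Atg9a, Atg101, Atg12 and Map1lc3a deepens with the hours, while Atg4a is red throughout.

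The second comparison asked whether the difference between the series changed from 1 to 7 h. It moved downward for 11 members and upward for 0, with 24 not passing (limma). At an unadjusted p under 0.05 it moved upward for 3 of 35 members and 2174 of 18194 genes. Over all genes 15.2% passed, 7.26% upward and 7.97% downward. The median change was -0.48 for the members and -0.00 for all genes. The 11 were Atg101, Atg14, Uvrag, Atg9a, Wipi2, Atg12, Map1lc3a, Map1lc3b, Gabarap, Gabarapl2 and Pink1, so 4 of the 5 LC3 and GABARAP genes were among them.

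Hour by hour, the median difference of the members was -0.05 at 0 h, 0.02 at 1 h, -0.19 at 2 h, -0.20 at 3 h, -0.33 at 4 h, -0.61 at 5 h, -0.49 at 6 h and -0.43 at 7 h. Members at least 2-fold lower with Epo numbered 0 at 0 and 1 h, 5 at 2 h, 4 at 3 h, 5 at 4 h, 11 at 5 h, 13 at 6 h and 10 at 7 h. The shares of all genes at those hours were 0.632%, 0.737%, 3.74%, 3.25%, 4.8%, 8.61%, 7.18% and 6.14%. Members at least 2-fold higher with Epo numbered 1, 1, 2, 2, 2, 3, 1 and 1 in the same order, against 2.4%, 1.79%, 3.41%, 3.28%, 3.15%, 4.6%, 4.46% and 4.51% of all genes. The 5 that were 2-fold lower at 2 h were Ulk1, Pik3c3, Pik3r4, Atg14 and Nbr1. Atg12 reached that size from 3 h on, and Ulk2, Atg101, Uvrag, Atg2b, Atg9a, Wipi1, Wipi2, Map1lc3a, Gabarap and Pink1 at some hour from 5 h on. In the other direction, Atg4a (1.67) and Fundc1 (1.23) were 2-fold higher at 2 h.

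Atg101 was the clearest late case. Its difference was 0.10 or less in size at 1 and 2 h, and -1.65 at 7 h, where it read 7.39 with Epo and 9.05 without. The fitted change was -1.91 ± 0.22 (adjusted p = 7.6e-05). Map1lc3a went from a higher level with Epo at 1 h (8.40 against 7.94) to a lower one at 7 h (8.61 against 9.92), a change of -1.90 ± 0.22 (adjusted p = 7.5e-05). The mean over the hours therefore understates how far apart these genes were at the end.

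Atg9a changed by -1.68 ± 0.33, Wipi2 by -1.25 ± 0.25, Gabarap by -1.28 ± 0.17 and Atg12 by -1.46 ± 0.30. Atg14 changed by -1.81 ± 0.46 (adjusted p = 0.015), and its step came early, between 1 and 2 h. Without the arrays at 1 h, Atg14 and Atg12 no longer passed. Gabarapl2 (-0.61 ± 0.19) and Pink1 (-1.07 ± 0.30) also lost the call on leaving out single hours. Ulk1 and Nbr1, whose levels without Epo stepped up by 2 h, did not pass, at -0.98 ± 0.49 and -0.51 ± 0.37.

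**Figure D3:**
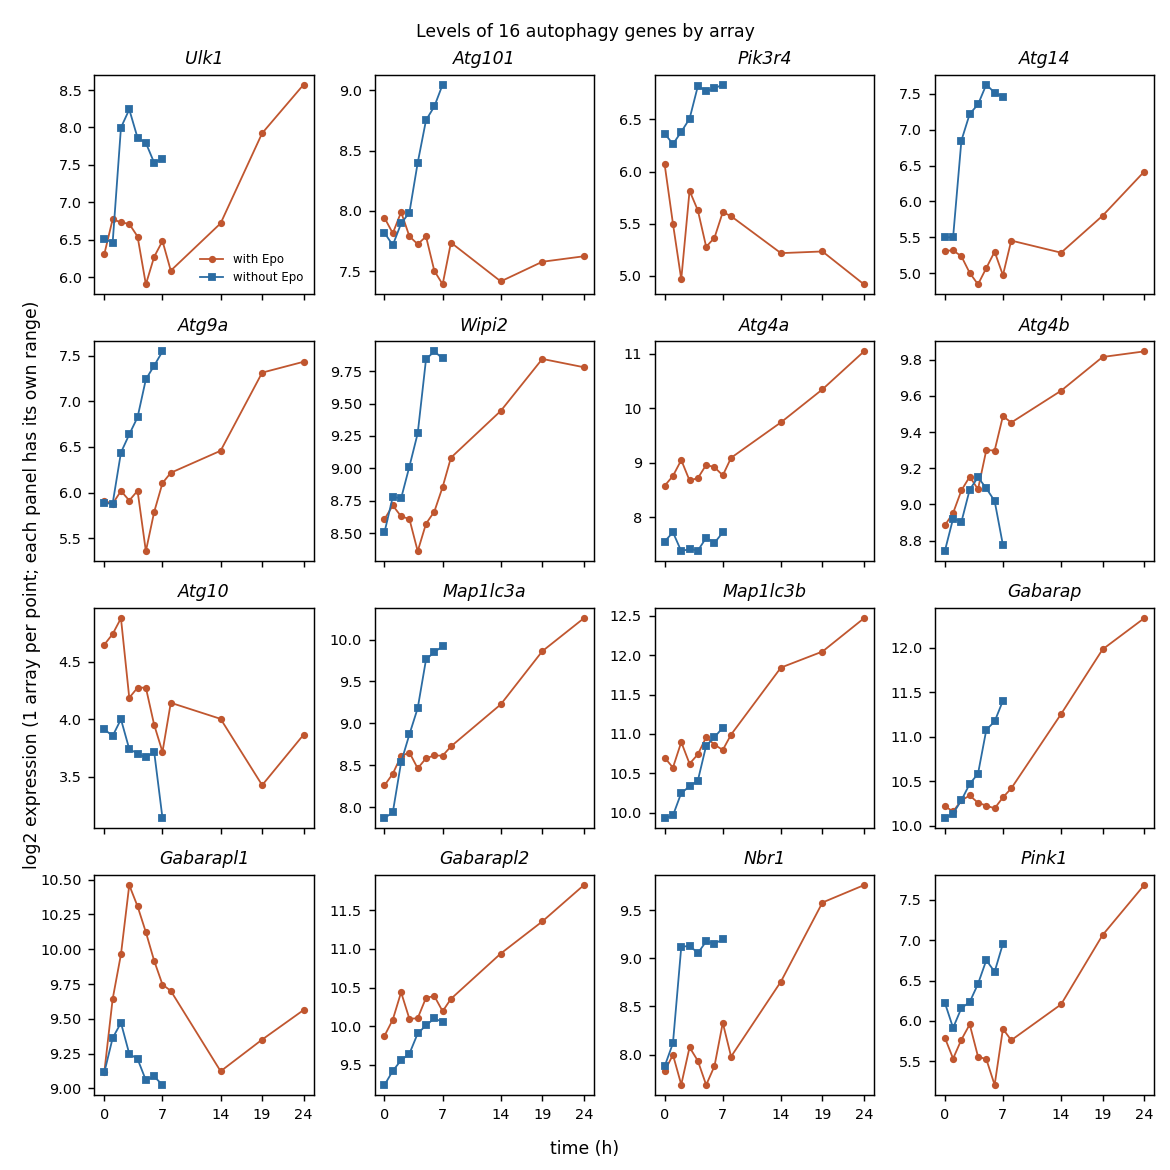
Log2 level of 16 members on each array against time in hours, 1 array per point, circles with Epo (0 to 24 h) and squares without (0 to 7 h), each panel on its own range. Atg14, Nbr1 and Ulk1 step up between 1 and 2 h without Epo, whereas Atg101, Map1lc3a, Gabarap and Wipi2 climb over several hours.

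The third comparison took the untreated cultures alone and asked what rose and fell from 0 to 7 h (fitted change over 7 h, 8 arrays). Most members changed: 19 were higher, 5 lower (Becn1, Atg3, Atg5, Atg7 and Atg10) and 11 did not pass. Over all genes 28.7% passed, 13.3% as higher and 15.4% as lower. The median change was 0.63 for the members and -0.03 for all genes. All 5 membrane factors rose, and so did 4 of 5 LC3 and GABARAP genes, while 4 of 10 conjugation genes fell. These arrays also enter the comparisons between the series, so the values are not a separate line of evidence for those.

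Map1lc3a had the largest fitted rise, from 7.87 at 0 h through 7.94, 8.53, 8.87, 9.18, 9.76 and 9.85 to 9.92 at 7 h. Each array was higher than the one before. The change was 2.33 ± 0.18, or 5.02-fold (adjusted p = 1.4e-05). Atg14 read 5.50 at 0 h and 7.46 at 7 h, a fitted change of 2.19 ± 0.40 or 4.56-fold (adjusted p = 0.0013), after a peak of 7.63 at 5 h.

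Atg9a rose from 5.88 at 0 h to 7.55 at 7 h, by 1.81 ± 0.16 or 3.52-fold (adjusted p = 2.0e-05). Wipi2 went from 8.51 to 9.85, by 1.54 ± 0.17, with its highest value of 9.90 at 6 h. Gabarap rose from 10.09 to 11.40, by 1.41 ± 0.12, and Map1lc3b from 9.93 to 11.08, by 1.24 ± 0.12. The other rises beyond 1 were Atg12 (1.51 ± 0.28), Atg101 (1.44 ± 0.17), Nbr1 (1.21 ± 0.30), Uvrag (1.12 ± 0.15) and Atg2b (1.06 ± 0.15).

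Smaller rises were seen in Wipi1 (0.92), Gabarapl2 (0.90), Pink1 (0.88), Atg13 (0.77), Atg4d (0.65), Atg2a (0.63), Sqstm1 (0.63) and Pik3r4 (0.62). Nbr1 did not pass without the array at 0 h, and Atg2a, Sqstm1, Atg7 and Atg10 were lost on leaving out single hours. Ulk1 peaked at 8.24 at 3 h and was 7.59 at 7 h, a course that a straight line misses, and it did not pass (0.99 ± 0.50, adjusted p = 0.18). The falls were of -0.84 ± 0.14 for Atg5, -0.78 ± 0.14 for Atg3, -0.63 ± 0.15 for Becn1, -0.60 ± 0.18 for Atg10 and -0.59 ± 0.18 for Atg7. The fall of Atg7 was not shared by its other probe sets, which read 0.25, 0.07 and 0.47 higher at 7 h than at 0 h, and with the mean of its probe sets the fitted change was 9.29e-05.

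All 8 hepatocyte markers fell over the same hours without Epo (median fitted change -1.94) and with it (-2.11), and 5 of 9 granulocyte markers fell without Epo. Of 7 erythroid markers, 5 rose without Epo and 3 with it. Whether these shifts bear on the members was not tested.

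**Figure D4:**
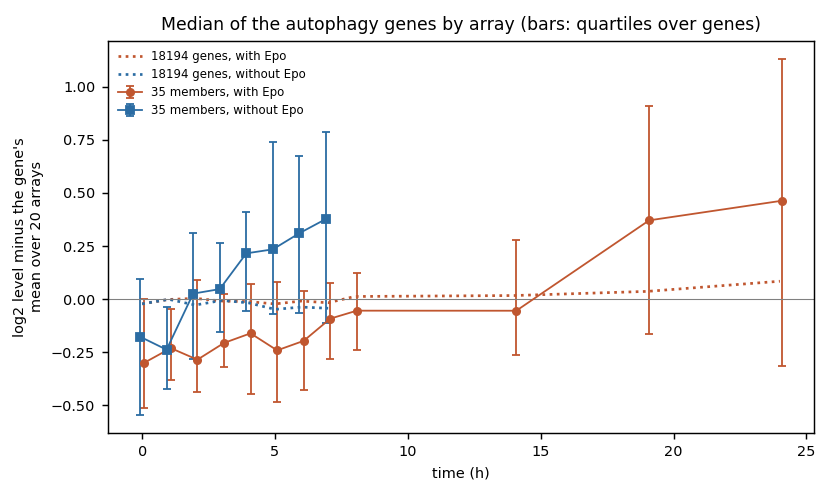
Median over the 35 members of the log2 level minus each gene's mean over the 20 arrays, by time in hours, with bars for the quartiles over members and dotted lines for the median of 18194 genes. The members climb from -0.18 at 0 h to 0.38 at 7 h without Epo, and with Epo stay between -0.30 and -0.05 until 14 h before reaching 0.46 at 24 h.

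With Epo, Atg4b was the 1 member that rose over the same hours and Atg10 the 1 that fell, with 33 not passing (limma, 8 arrays). An unadjusted p under 0.05 was found for 9 of 35 members and 3467 of 18194 genes. Over all genes 8.09% passed, 2.21% as higher and 5.88% as lower. The median change was 0.05 for the members and -0.01 for all genes. Atg4b, the most active of the LC3 proteases, read 8.88, 8.95, 9.08, 9.15, 9.08, 9.30, 9.30 and 9.49 at 0 to 7 h and rose by 0.55 ± 0.13 (adjusted p = 0.017). Atg10 read 4.65, 4.74, 4.88, 4.19, 4.28, 4.28, 3.95 and 3.72 and changed by -1.02 ± 0.21 (adjusted p = 0.0078). Sqstm1 (0.67 ± 0.27), Atg2b (0.65 ± 0.21) and Atg2a (0.64 ± 0.26) did not pass, though for Sqstm1 and Atg2a the fitted change was about as large as the one that passed without Epo. Neither call with Epo was firm, since Atg4b was lost without the array at 0, 1, 6 or 7 h and Atg10 without that at 7 h.

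Some members were highest with Epo in the middle of these hours, which a straight line does not describe. Gabarapl1 was at 9.12 at 0 h, 10.46 at 3 h and 9.75 at 7 h (fitted change 0.51 ± 0.31, not passing). Sqstm1 read 8.93 at 0 h, 10.23 at 3 h and 9.92 at 7 h, and without Epo 8.98, 9.85 and 9.63 at the same hours.

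The last comparison followed the Epo cultures onward and set 14, 19 and 24 h against 1 to 8 h (11 arrays). Of the members 20 were higher late, 5 lower (Atg2b, Atg4c, Atg5, Gabarapl1 and Fundc1) and 10 did not pass. Over all genes 36.2% passed, 17.6% as higher and 18.5% as lower. The median difference was 0.54 for the members and 0.08 for all genes. All 3 cargo receptors and 4 of 5 LC3 and GABARAP genes were higher late.

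Gabarap read between 10.16 and 10.42 at 1 to 8 h, then 11.26, 11.98 and 12.33 at 14, 19 and 24 h. The late arrays lay above all early ones. The difference was 1.58 ± 0.16, or 2.99-fold (adjusted p = 1.8e-05). Atg4a went from a range of 8.67 to 9.09 to 9.74, 10.34 and 11.04, a difference of 1.51 ± 0.20 or 2.85-fold (adjusted p = 7.6e-05). It was thus higher with Epo from the start and higher again late.

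Nbr1 read 7.68 to 8.33 early and 8.76, 9.58 and 9.76 late, a difference of 1.42 ± 0.19 (adjusted p = 8.6e-05). Pink1 read 5.21 to 5.96 early and 6.21, 7.06 and 7.68 late, a difference of 1.33 ± 0.24 (adjusted p = 0.00063). In both genes the late arrays did not overlap the early ones. Map1lc3b was higher late by 1.31 ± 0.13, Ulk1 by 1.30 ± 0.30, Rb1cc1 by 1.20 ± 0.18, Map1lc3a by 1.20 ± 0.17, Atg9a by 1.16 ± 0.21, Gabarapl2 by 1.12 ± 0.15 and Wipi2 by 1.00 ± 0.15.

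Tax1bp1 (0.92), Sqstm1 (0.75), Atg4d (0.75), Atg14 (0.68), Atg12 (0.68), Ulk2 (0.56), Atg4b (0.54), Uvrag (0.46) and Wipi1 (0.46) were higher by less. The members that were lower late were Gabarapl1 (-0.64 ± 0.17), Atg5 (-0.63 ± 0.14), Atg4c (-0.63 ± 0.13), Fundc1 (-0.63 ± 0.19) and Atg2b (-0.56 ± 0.20). Of the 20 and 5, the calls of Ulk2, Atg14 and Sqstm1 were lost without the array at 24 h, those of Uvrag and Wipi1 without 19 h, that of Fundc1 without either, and that of Atg2b in several leave-outs. The other probe sets of Atg2b were dimmer and gave late differences of 0.0448 and 0.35, so its late direction was not shared by its probe sets. For Atg4b the next brightest probe set gave -0.001, so its late rise was not shared either. Sizes also depended on the probe set for Rb1cc1 and Wipi2, where the next brightest gave 0.57 and 0.25. For Ulk1 (1.11) and Map1lc3a (1.35) the second probe set was close to the one used. Against 6 to 8 h alone 14 members passed, and against 1 to 3 h alone 15. Calls over all genes fell as well, from 3207 higher and 3372 lower to 1045 and 1851 against 6 to 8 h. Against 1 to 3 h they were 1330 and 2153. Hepatocyte markers fell in 7 of 8 over this span, and 5 of 7 erythroid markers rose, Alas2 of heme synthesis by 3.20. Whether these bear on the members was not tested.

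The rises without Epo and the late rises with Epo come from arrays that the comparisons do not share. Of the 19 members that rose without Epo, 14 (73.7%) were also among the 20 higher late with Epo, or 70% of those. Over all genes 851 rose in both, 4.68% of those tested, 35% of the 2428 rising without Epo and 26.5% of the 3207 higher late. The 14 were Atg14, Uvrag, Atg9a, Wipi1, Wipi2, Atg4d, Atg12, Map1lc3a, Map1lc3b, Gabarap, Gabarapl2, Sqstm1, Nbr1 and Pink1. Atg101, Atg13, Pik3r4, Atg2a and Atg2b rose without Epo and were not higher late. Atg101 made the plainest contrast, reading 9.05 at 7 h without Epo and 7.62 at 24 h with it. Conversely Atg4a, Ulk1, Ulk2, Rb1cc1, Atg4b and Tax1bp1 were higher late and had not passed without Epo.

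**Figure D5:**
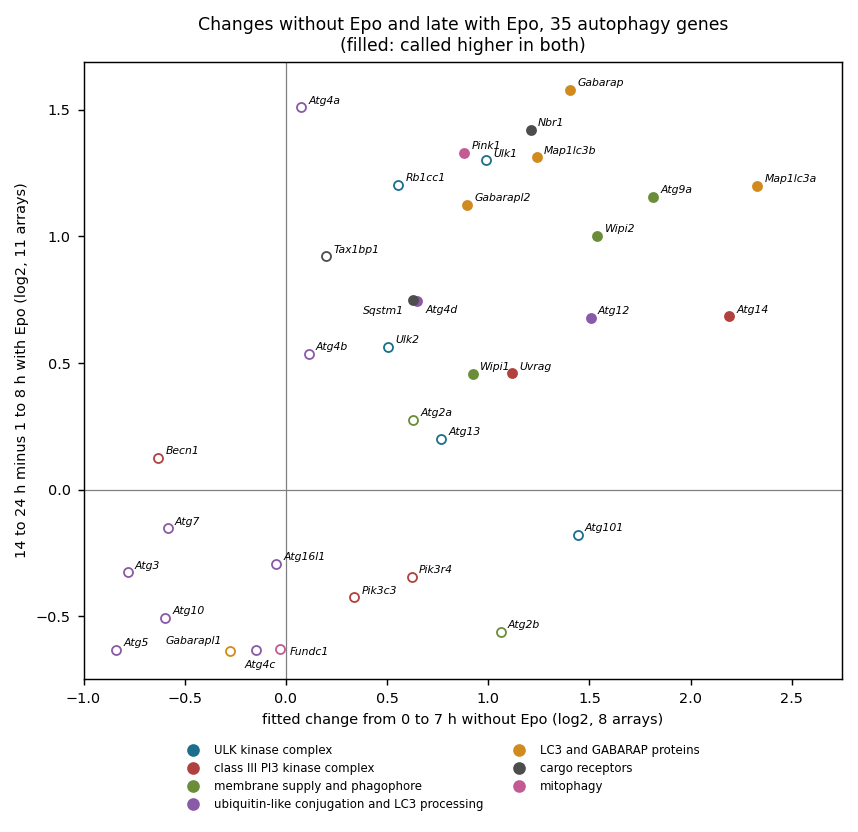
Fitted log2 change from 0 to 7 h without Epo (8 arrays) against the log2 difference of 14 to 24 h minus 1 to 8 h with Epo (11 arrays) for the 35 members, coloured by role and filled for the 14 that were higher in both. Atg4a lies high on the vertical axis alone, and Atg101 lies to the right and below 0.

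Over the 20 arrays the members that went together most were Map1lc3b and Gabarapl2 (Pearson r = 0.969), Uvrag and Wipi1 (0.946), Atg9a and Wipi2 (0.933), Wipi2 and Map1lc3a (0.928) and Ulk1 and Nbr1 (0.923). Those most opposed were Wipi1 and Atg5 (-0.92), Uvrag and Atg5 (-0.91) and Pik3c3 and Atg4a (-0.908). These describe shared courses across the same 20 arrays, and are no test.

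Further genes of the pathway, in lists chosen like the members with earlier results known, were set beside them for the Epo effect at 1 to 7 h, in which 18.2% of all genes were higher and 20.2% lower. Of 20 further autophagy factors 6 were higher and 8 lower with Epo (median -0.24). The largest were Epg5, a tether for fusion with lysosomes (-1.40 ± 0.18), Zfyve1, a protein binding phosphatidylinositol 3-phosphate (-1.17 ± 0.16), and Ambra1, a Beclin 1 partner (-0.85 ± 0.12). Ambra1 was already lower at 0 h, at -1.05, and measured from each series' own 0 h its difference was 0.20. Epg5 (-0.78) and Zfyve1 (-0.75) were lower at 0 h too, and measured from there differed by -0.63 and -0.42. Of 14 further mitophagy factors 3 were higher and 6 lower (median -0.18). The receptor Bnip3 was higher by 1.29 ± 0.10, after a difference of 0.83 at 0 h. In contrast, the receptor Bcl2l13 (-1.05 ± 0.17, and -0.22 at 0 h) and the outer membrane channel Vdac1 (-0.75 ± 0.08, and -0.62 at 0 h) were lower.

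Of 9 further selective receptors 1 was higher and 5 lower (median -0.62), led by Tollip (-1.10 ± 0.21), the ferritin receptor Ncoa4 (-1.03 ± 0.11) and the reticulum receptor Ccpg1 (-0.99 ± 0.22). At 0 h their differences were -0.36, -0.51 and -0.09 in the same order. Of 20 lysosome genes 3 were higher and 8 lower (median -0.30), with the membrane protein Scarb2 at -1.49 ± 0.26, the saposin precursor Psap at -1.26 ± 0.13 and the cholesterol exporter Npc1 at -0.73 ± 0.10. Their differences at 0 h were 0.02, -0.41 and 0.29. Of 10 genes of upstream kinases and mTORC1, 1 was higher and 4 lower (median -0.20). The AMPK subunits Prkab1 and Prkaa1 were at -1.59 ± 0.20 and -0.74 ± 0.12, and the mTORC1 inhibitor Tsc1 at -0.87 ± 0.18. Differences at 0 h were -0.16 for Prkab1, -0.34 for Prkaa1 and -0.36 for Tsc1.

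Without Epo, where 13.3% of all genes rose and 15.4% fell, the counts of rising and falling genes were 6 and 0 of 20 for the further autophagy factors, 4 and 6 of 14 for mitophagy, 4 and 0 of 9 for receptors, 9 and 6 of 20 for lysosome genes and 4 and 0 of 10 for upstream kinases. Late with Epo, with 17.6% and 18.5% of all genes, they were 8 and 3, 1 and 7, 5 and 2, 6 and 6, and 0 and 2 in the same order.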

How the data were processed

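RNA of 20 samples was measured on mouse expression arrays, 1 array per sample. The authors deposited log2 values, from 1.37 to 14.56, and the summarisation and scaling behind them are not given in the sources used here. Per the labels' protocols, RNA came from a column kit and was labelled as biotinylated cRNA. Of 45101 probe sets, 34958 named 1 gene in the platform annotation, 932 several and 9211 none here. For 26 members there was more than 1 probe set. Depth has no counterpart on arrays, and their number limits the precision.

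Models were fitted with limma 3.58.1 in R 4.3.3 (empirical Bayes with trend) to all 18194 genes, with Benjamini-Hochberg adjustment over all of them and a threshold of 0.05. A member passes, is called, rises or falls by that rule. The Epo effect used 14 arrays with time as a block, its change the slope of the 7 matched differences, the time courses a slope over 8 arrays each, and the late comparison group means over 11 arrays. The fits were tested on simulated data. Figures were drawn with matplotlib 3.10.9 and tables made with numpy 2.4.6 and pandas 2.3.3 in Python 3.11.15. Promoter sequences came from RefSeq. Members, lists and named genes were chosen with earlier results of these data known. All members are named. Array values are given for members called with an Epo effect of at least 1 and for the up to 4 largest in each other comparison, and of each further list the 3 largest called; values named besides these were chosen after they were seen.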

Additional observations from a re-analysis of the deposited data

Results flagged for a closer look

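For 11 members the difference between the series changed from 1 to 7 h by a test of the change itself (limma slope of the matched differences, adjusted p under 0.05), always toward a lower level with Epo. On the log2 scale the change was -1.91 for Atg101, -1.90 for Map1lc3a, -1.81 for Atg14, -1.68 for Atg9a, -1.46 for Atg12, -1.28 for Gabarap, -1.25 for Wipi2, -1.17 for Uvrag, -1.07 for Pink1, -0.93 for Map1lc3b and -0.61 for Gabarapl2. Atg10 stood out in another way: its array at 7 h without Epo, at 3.14, lay far below the other 7 arrays of that group for its range. In arrays without a trend, chance gives such a gap in about 1 in 20 groups, and many groups were looked at. Atg10 fell over these hours (fitted change -0.60) and 7 h was the last, so that rate does not hold here.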

How the results depend on the processing

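Measured from each series' own 0 h, the Epo effect was called in 0 members (0 higher, 0 lower) without drift and 4 (0 higher, 4 lower) with it. Among the members called in the main fit, the effect turned sign for Rb1cc1 (0.04), Becn1 (0.43), Atg10 (-0.14), Gabarapl2 (-0.21) and Fundc1 (-0.0018). With probe sets lacking a suffix for shared sequence, the Epo effect was 0.0588 for Becn1 and -0.60 for Map1lc3b (adjusted p = 0.039), and the late difference of Atg2b was 0.0448. In that setting 31 members had a value, their median Epo effect was -0.23 (all genes 0.03), and 19 of the 26 calls were kept. Pik3c3, Pik3r4, Atg12 and Nbr1, all called in the main fit, had no such probe set. With the mean of probe sets the change of Atg7 without Epo was 9.29e-05. For the change of the Epo effect, members moving upward numbered 1 with quantile normalization, 2 among brighter genes, 1 without suffixed probe sets and 1 with 0 h added. Members falling without Epo numbered 3 with the mean of probe sets and 3 on log2 time. With Epo, brighter genes gave 2 rises and 0 falls, and unsuffixed probe sets and log2 time 2 rises each. The brighter genes leave out Atg10, the 1 member that fell with Epo, since its mean of 3.99 lies below the median gene level of 4.91. That setting therefore could not keep the fall. Late with Epo, quantile normalization gave 3 falls, early times of 6 to 8 h gave 14 calls (13 higher, 1 lower) and of 1 to 3 h 15 (13 and 2). Over all genes those early times gave 1045 higher and 1851 lower, and 1330 and 2153. The count of members at least 2-fold apart at 0 h, 1, became 0 with arrays centred on their medians and 0 with the mean of probe sets, alternatives chosen after seeing the data. Leaving out single hours gave 22 to 26 calls for the Epo effect (6 to 7 higher, 16 to 20 lower), 8 to 12 for its change (0 higher), 21 to 24 without Epo (17 to 19 and 3 to 6), 0 to 3 with Epo (0 to 2 and 0 to 1) and 20 to 27 late (17 to 20 and 3 to 7). Over all genes, leaving out 6 h gave 871 higher and 854 lower for the change (1320 and 1450 with it) and 233 and 681 with Epo (402 and 1070), and leaving out 24 h gave 1813 and 2418 late (3207 and 3372). Among members not called, the sign changed in 15 of 153 values for the Epo effect, 16 of 356 for its change, 10 of 175 without Epo, 37 of 557 with Epo and 3 of 197 late. The causes were not tested. Without time as a block, which pairs the arrays of an hour, the Epo effect was called in 25 members (6 higher, 19 lower). One array per time limits every value, and no array gives a level on an absolute scale.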

Other observations

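Trp53inp1, a stress protein that binds LC3 and GABARAP, had the largest fitted rise among the further pathway genes, and is named here after its values were seen. It read 3.75 at 0 h and 8.21 at 7 h without Epo, a fitted change of 4.99 ± 0.32 (limma, adjusted p = 1.1e-05). With Epo it also rose over those hours, by 2.20 ± 0.34 (adjusted p = 0.00085), and it reached 8.50 at 24 h. The difference between the series moved by -2.86 ± 0.44 from 1 to 7 h, while its mean over those hours did not pass (-0.46 ± 0.32, adjusted p = 0.29).

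The mitophagy receptor Bnip3, higher with Epo over 1 to 7 h, fell in both series over 0 to 7 h, with changes of -1.90 ± 0.17 without Epo and -1.37 ± 0.18 with it. Without Epo it read 9.45 at 0 h and 7.67 at 7 h. With Epo it read 10.28 at 0 h, between 9.01 and 10.35 at 1 to 7 h, and 10.08 at 24 h. The ferritin receptor Ncoa4 followed the course of many members instead, rising by 1.22 ± 0.16 without Epo and lying 1.16 ± 0.17 higher late with Epo. Calcoco1, a receptor for the reticulum and Golgi, read between 2.85 and 3.81 with Epo at 1 to 7 h and 6.47 at 24 h, and was 2.13 ± 0.30 higher late.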
